A study of Mus musculus with 12 samples.

Results

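The levels of 10 marker genes of T lymphocytes were followed in mice given corticosterone (CORT), the main glucocorticoid of rodents, and in vehicle-treated (Veh) mice. These 10 of the 55416 genes listed were taken by name: Cd3d (ENSMUSG00000032094), Cd3e (ENSMUSG00000032093), Cd3g (ENSMUSG00000002033), Cd8a (ENSMUSG00000053977), Cd8b1 (ENSMUSG00000053044), Cd4 (ENSMUSG00000023274), Gzma (ENSMUSG00000023132), Gzmb (ENSMUSG00000015437), Cd160 (ENSMUSG00000038304) and Itgae (ENSMUSG00000005947). The rule is a list of names with no threshold on a measured value, and the list was written with earlier results of these data known. The study took duodenum and liver from male C57BL6/J mice that were 8 weeks old at the start and were injected under the skin every day for 8 weeks, with CORT at 40 mg/kg or with vehicle. RNA-seq covered 3 libraries per group and tissue, 12 in all: intestine Veh, intestine CORT, liver Veh and liver CORT. All 4 groups were of this strain and sex, and vehicle mice received the injections too. Values are TPM, each gene's share of the transcripts of a library after division by transcript length. Read numbers cannot be had from them, so library depth is not known and the only error available is the spread between libraries. Labels give each library a number but do not say whether these were single animals, so all p-values measure the spread between these libraries.

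The gut epithelium holds a dense population of intraepithelial lymphocytes (IELs), T cells that sit between enterocytes. T cells recognise antigen through a receptor of alpha and beta or gamma and delta chains, which signals through the CD3 proteins. CD8 and CD4 are the coreceptors of cytotoxic and helper T cells, and many IELs carry a CD8 made of alpha chains alone. Granzymes are serine proteases of cytotoxic granules. Itgae codes for the alpha E integrin chain (CD103), which pairs with the beta 7 chain (Itgb7) to bind E-cadherin on enterocytes, and Cd160 codes for a receptor of cytotoxic IELs. Glucocorticoids are known for killing thymocytes and for restraining T cell activation.

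In the intestine none of the 10 T cell genes passed the test between CORT and Veh. A gene was called when limma's adjusted p (Benjamini-Hochberg over all genes tested) was 0.05 or less and its fold change exceeded 1.5, computed on log2(TPM + 1) for genes averaging 1 TPM or more in CORT or in Veh. All 10 were tested and 0 were called, against 292 of 13607 tested genes (2.15%). With unadjusted p-values under 0.05 and a fold change over 1.5, again 0 of 10 passed, against 10.3% of tested genes. The glucocorticoid-induced genes Fkbp5 and Tsc22d3 rose in the same libraries, by a log2 fold change of 4.30 ± 0.34 (SE, adjusted p = 0.0045) and of 2.01 ± 0.25 (adjusted p = 0.018). Fkbp5 kept its call in every alternative run, while that of Tsc22d3 was lost when Veh2 (adjusted p = 0.058), CORT1 (0.058) or CORT2 (0.060) was left out, without a filter (0.055), with the replicate number as a block (0.077) and without Veh1 and CORT2 together (0.0995).

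Some intestine libraries stood apart from their groups. Of 33 pancreatic acinar genes, 31 were tested, and their summed level was 46689 TPM in Veh2 and 37976 TPM in Veh3 but 621 TPM in Veh1 and 581 to 844 TPM in the CORT libraries. Acinar genes thus made up 4.68% and 3.81% of all TPM in Veh2 and Veh3 and at most 0.085% elsewhere. CORT2 carried the most B cell and follicle transcripts, with a sum of 81.6 TPM over 10 genes, against 16.5 and 26.7 TPM in CORT1 and CORT3 and 18.1 to 26.7 TPM in the Veh libraries. Veh2 had the most mast cell transcripts, 205 TPM against 2.73 to 6.11 TPM in the others. Results are therefore given with all libraries and, where they rest on these, without them.

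**Figure D1:**
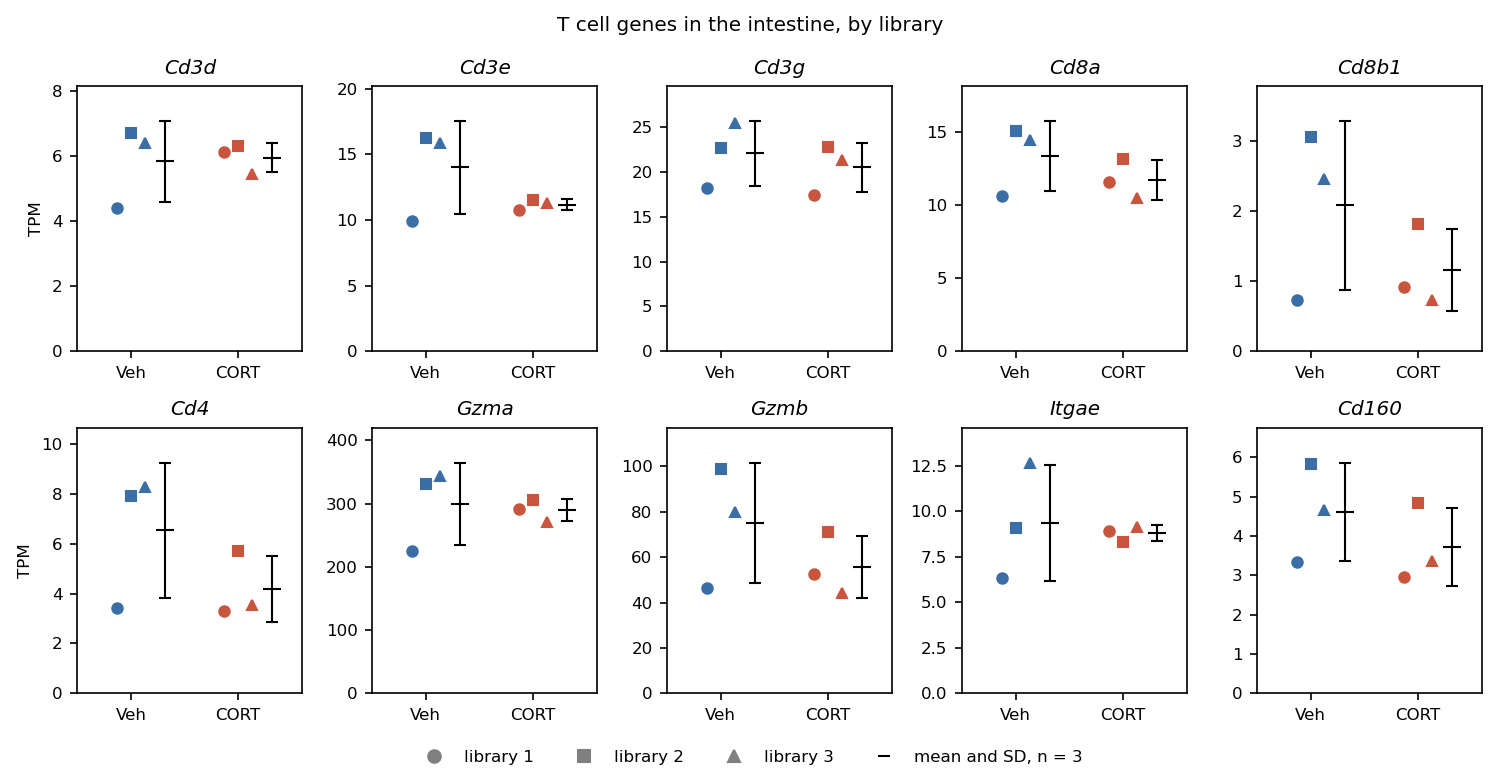
TPM of each T cell gene in the 6 intestine libraries (circle, square and triangle are libraries 1, 2 and 3 of a group), with the mean and SD of 3 libraries at the side of each group. Veh1 was the lowest Veh library for all 10 genes, and the groups overlapped for all 10.

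The 10 genes differed widely in level. TPM is divided by transcript length, so levels of different genes can be set side by side. Over the 6 intestine libraries Gzma averaged 294.6 TPM and Gzmb 65.4 TPM, followed by Cd3g at 21.3 TPM, Cd3e and Cd8a at 12.6 TPM each, Itgae at 9.08 TPM, Cd3d at 5.89 TPM, Cd4 at 5.35 TPM, Cd160 at 4.17 TPM and Cd8b1 at 1.62 TPM. Gzma exceeded Gzmb in 6 of 6 libraries, by 4.5 times on average, and Gzmb exceeded Cd3g in 6 of 6 by 3.08 times. Cd3e exceeded Cd8a in only 3 of 6 libraries, and Cd3d exceeded Cd4 in 4 of 6, so the order within these 2 pairs was not settled. Every other neighbour in the order kept its place in 6 of 6 libraries. None of the 10 genes was at 0 in any intestine library.

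The CD3 genes, which code for the signalling subunits found on every T cell, differed little between groups. Cd3d was at 4.40, 6.69 and 6.41 TPM in Veh1, Veh2 and Veh3 and at 6.12, 6.30 and 5.43 TPM in CORT1, CORT2 and CORT3. Cd3e was at 9.95, 16.3 and 15.9 TPM in Veh and at 10.8, 11.5 and 11.3 TPM in CORT. Cd3g was at 18.2, 22.6 and 25.4 TPM in Veh and at 17.4, 22.8 and 21.3 TPM in CORT. For each of the 3 genes Veh1 lay below Veh2 and Veh3, and the CORT values fell inside the span of the Veh values or, for CORT1 at Cd3g, just under it. The log2 fold change (CORT minus Veh) was 0.04 ± 0.17 for Cd3d (SE, n = 3 per group, adjusted p = 0.92), -0.27 ± 0.19 for Cd3e (adjusted p = 0.48) and -0.10 ± 0.17 for Cd3g (adjusted p = 0.79). The 95% intervals ran from -0.37 to 0.45, from -0.73 to 0.18 and from -0.49 to 0.30. In whole tissue, fewer T cells and less T cell RNA per cell cannot be told apart.

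Among the coreceptor genes, the means of all 3 were lower in CORT, within the spread of the libraries. Cd8a, the alpha chain of CD8, was at 10.7, 15.1 and 14.5 TPM in Veh and at 11.6, 13.2 and 10.5 TPM in CORT. Cd8b1, the beta chain of conventional CD8 T cells, was at 0.73, 3.06 and 2.45 TPM in Veh and at 0.92, 1.82 and 0.73 TPM in CORT. Cd4, carried by helper T cells and also by some macrophages and dendritic cells, was at 3.40, 7.92 and 8.26 TPM in Veh and at 3.29, 5.72 and 3.53 TPM in CORT. Veh1 and CORT3 shared the lowest Cd8b1 value, and Veh1 sat among the CORT libraries for Cd4 as well. The log2 fold changes were -0.17 ± 0.17 for Cd8a (adjusted p = 0.62), -0.46 ± 0.36 for Cd8b1 (adjusted p = 0.53) and -0.49 ± 0.33 for Cd4 (adjusted p = 0.45), all from limma. The interval was wide for Cd8b1, from -1.32 to 0.40, and for Cd4, from -1.27 to 0.28, and narrower for Cd8a, from -0.56 to 0.23. On the scale of TPM + 1, these data thus leave room for a fall of Cd4 to 0.42 of its Veh value or a rise to 1.21 times it. With 0.1 TPM added instead, the log2 interval of Cd4 was wider, from -1.47 to 0.33.

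The granzymes are the most abundant of the 10 transcripts, and their upstream sequences are shown for that reason. RefSeq promoter entries (assembly GRCm38.p6) matched 7 of the 10 genes, with 8 entries because Cd160 has 2, and no entry matched Cd8b1, Cd4 or Itgae. The 250 bases before the annotated start of each granzyme gene are printed 5′ to 3′, with capitals marking the RUNX motif TGTGGT or its reverse complement. Gzma lies on the minus strand, at chr13:113100982-113101231, and Gzmb on the minus strand, at chr14:56262335-56262584. RUNX3 is a transcription factor of the cytotoxic lineage.
Gzma: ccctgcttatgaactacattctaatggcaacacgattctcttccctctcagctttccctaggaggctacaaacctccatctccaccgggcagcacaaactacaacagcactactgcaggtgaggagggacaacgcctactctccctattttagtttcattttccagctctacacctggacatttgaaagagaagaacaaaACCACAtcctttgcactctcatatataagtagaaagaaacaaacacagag
Gzmb: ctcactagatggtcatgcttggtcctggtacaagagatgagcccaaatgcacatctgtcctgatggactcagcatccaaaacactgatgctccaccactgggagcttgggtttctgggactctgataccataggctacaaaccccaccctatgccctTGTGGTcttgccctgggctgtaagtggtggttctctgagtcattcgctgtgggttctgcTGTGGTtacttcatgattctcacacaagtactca
The motif was searched on both strands from 250 bases before to 50 after each start. It was found at -50 from the start in Gzma, at -93 and -34 in Gzmb and at -101 and -76 in Cd160, and in none of the promoters of Cd8a, Cd3d, Cd3e and Cd3g, and 16.8% of all 32851 promoters hold it. The letters AGAACA, 1 arm of the palindrome bound by the glucocorticoid receptor, were found at -58 in Gzma, at -189 in Cd8a and in Cd160, and are in 19.0% of all promoters. They do not overlap the RUNX letters in Gzma. These matches describe letters in a window and not sites bound in these mice.

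Both granzymes stayed high in every intestine library. Gzma, granzyme A, was at 224.6, 330.8 and 343.4 TPM in Veh and at 291.6, 305.6 and 271.7 TPM in CORT. Gzmb, granzyme B, was at 46.5, 99.0 and 79.7 TPM in Veh and at 52.5, 70.9 and 44.0 TPM in CORT. All 3 CORT values of Gzma fell between Veh1 and the other Veh libraries, and Gzmb was lowest in CORT3 and Veh1. The log2 fold change was -0.03 ± 0.19 for Gzma (95% interval -0.47 to 0.41, adjusted p = 0.96) and -0.38 ± 0.30 for Gzmb (-1.09 to 0.33, adjusted p = 0.52).

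The gene of epithelial lodging and that of the IEL receptor CD160 were not called either. Itgae was at 6.34, 9.07 and 12.7 TPM in Veh and at 8.90, 8.31 and 9.16 TPM in CORT. Cd160 was at 3.34, 5.84 and 4.66 TPM in Veh and at 2.97, 4.84 and 3.36 TPM in CORT. The 3 CORT values of Itgae lay inside the span of the Veh values, and for Cd160 the groups overlapped with CORT1 lowest. Log2 fold changes were -0.04 ± 0.23 for Itgae (95% interval -0.57 to 0.50, adjusted p = 0.95) and -0.24 ± 0.23 for Cd160 (-0.78 to 0.29, adjusted p = 0.59).

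Of the 10 genes, 9 had a negative log2 fold change, against 51.5% of all tested genes, and their median was -0.21 against -0.01 over all tested genes. No gene had groups that did not overlap, against 26.4% of all tested genes. The upper ends of all 10 intervals stayed below a 1.5-fold rise on the log2(TPM + 1) scale, while with 0.1 TPM added that of Cd8b1 was 0.69. The lower ends passed a 1.5-fold fall for 5 genes (Cd3e, Cd8b1, Cd4, Gzmb and Cd160), so for these 5 a fall of that size could not be told from no change with 3 libraries per group. This set depended on the fit. With 0.1 TPM added, the lower ends of Cd8a (-0.60) and Itgae (-0.61) passed it too. Without Veh1 so did those of Cd3g (-0.62), Cd8a (-0.68) and Itgae (-0.69).

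**Figure D2:**
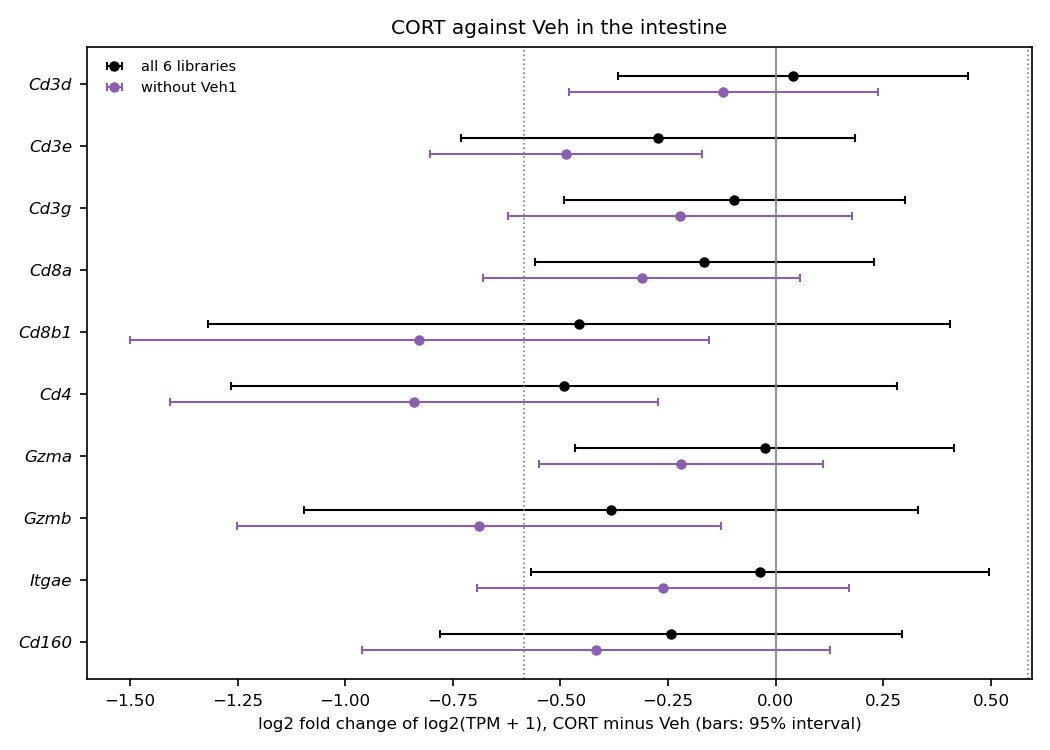
Log2 fold change of log2(TPM + 1), CORT minus Veh, of the 10 T cell genes in the intestine from limma (points) with 95% intervals (bars), for all 6 libraries (black) and without Veh1 (purple). Dotted lines mark a 1.5-fold change either way. All black intervals cross 0. Without Veh1, the lowest Veh library for all 10 genes, those of Cd3e, Cd8b1, Cd4 and Gzmb lie below it.

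How low the CORT libraries appear depended on Veh1. Veh1 was lowest of the Veh libraries for 10 of 10 genes, was below the CORT mean for 10 of 10 and below every CORT library for 4 of 10, whereas Veh2 and Veh3 both exceeded every CORT library for 7 of 10 genes. The same arrangement, with Veh1 disregarded, held for 18.9% of all tested genes. The 3 exceptions were Cd3g, Itgae and Cd160. Without Veh1 the log2 fold change was negative for 10 of 10 genes, with a median of -0.36 against 0.01 over all genes tested, and it ranged from -0.84 for Cd4 to -0.12 for Cd3d. The smallest adjusted p was 0.14 (Cd3e, -0.49 ± 0.13), and 0 of 10 genes were called. An unadjusted p under 0.05 without Veh1 was found for 4 of 10 genes, against 16.9% of all genes in that fit: Cd3e, Cd4 (-0.84 ± 0.23), Gzmb (-0.69 ± 0.23) and Cd8b1 (-0.83 ± 0.28). With the 1.5-fold limit added these were 3 of 10, against 11.3%. This fit is shown because Veh1 was low in these same genes, and leaving out their lowest Veh library must lower each fold change. The shares over all genes without Veh1 carry no such selection, so they give no test of these counts. With CORT2 also left out, a fit chosen after seeing the data, Cd4 reached -1.04 ± 0.14 (adjusted p = 0.062), Cd8b1 -1.04 ± 0.21 (adjusted p = 0.12) and Gzmb -0.87 ± 0.17 (adjusted p = 0.11), with 0 of 10 called. Both fits keep only Veh2 and Veh3, the libraries with acinar transcripts, as the Veh group, so treatment and acinar content cannot be told apart in either.

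**Figure D3:**
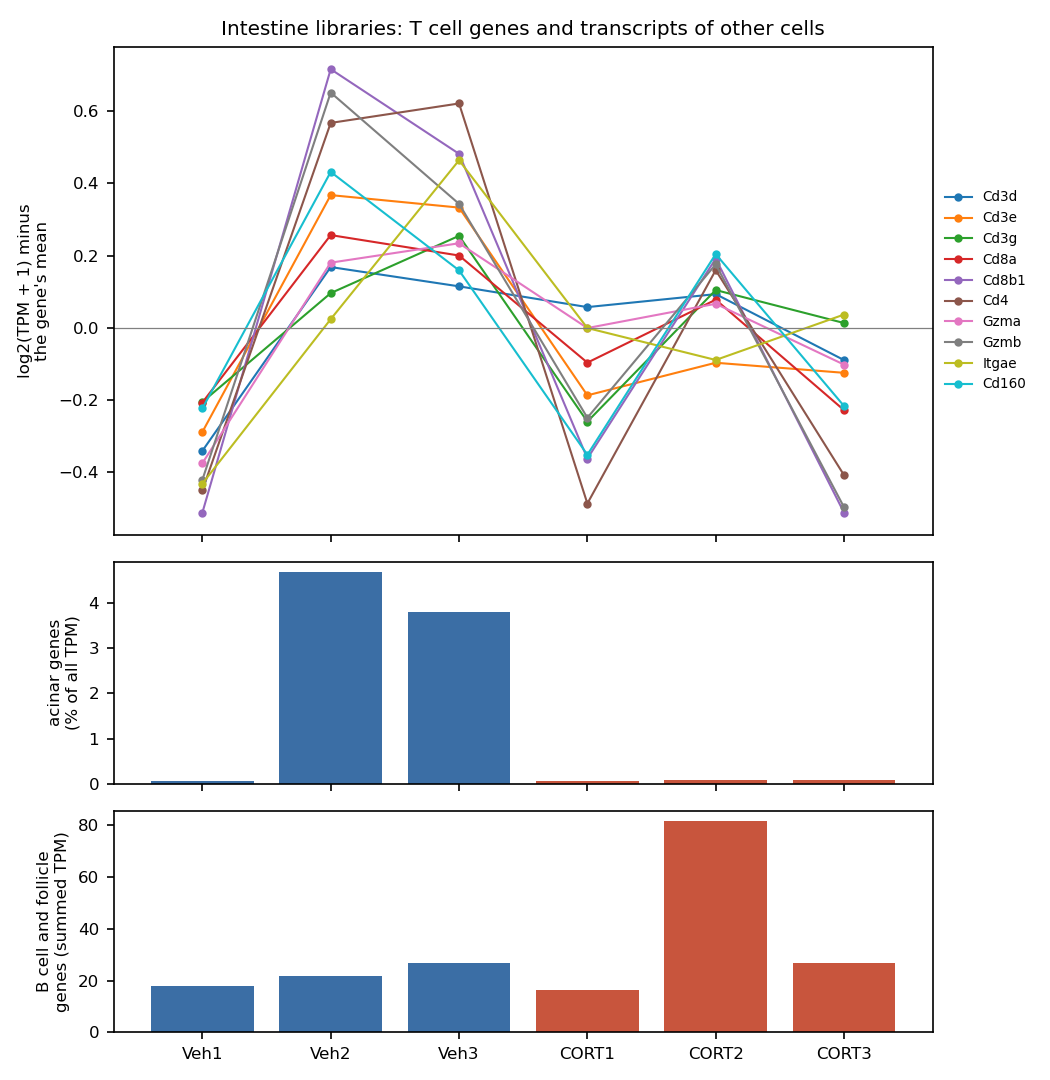
Upper panel, log2(TPM + 1) of each T cell gene minus that gene's mean over the 6 intestine libraries. Lower panels, the percent of all TPM from 33 pancreatic acinar genes and the summed TPM of 10 B cell and follicle genes (bars, blue for Veh and red for CORT). The T cell genes were high in Veh2 and Veh3, where acinar genes made up 4.68% and 3.81%, and CORT2 was highest of the CORT libraries for 9 of 10 genes and had a B cell and follicle sum of 81.6 TPM.

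The levels of the 10 genes moved together across libraries. Across the 6 intestine libraries, their log2(TPM + 1) values had a Pearson r with the mean of Cd3d, Cd3e and Cd3g of 0.80 (Itgae) to 0.94 (Cd4) for the genes outside CD3, a description over libraries that differ in acinar and lymphoid content. Of the tested genes that are not among the 10, the most like CD3 were Sh3pxd2b (r = 0.993), Laptm5 (0.984), Nfkbie (0.980), Mvb12b (0.979) and Coro1a (0.978). Laptm5 codes for a lysosomal membrane protein of blood cells and Coro1a for an actin-binding protein of leukocytes. Coro1a was at 22.0, 43.6 and 49.2 TPM in Veh and at 23.6, 36.3 and 27.9 TPM in CORT, again with Veh1 lowest and CORT2 the highest of its group.

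Natural killer cells, which also make granzymes, gave little signal: the 6 genes listed for them summed to 0.60 to 1.40 TPM in Veh and 0.66 to 1.06 TPM in CORT, with Klra4 at 0 in every intestine library and none of the 6 passing the filter. The macrophage genes, 9 of 11 tested, summed to 227.8, 345.5 and 388.1 TPM in Veh1, Veh2 and Veh3 and to 266.7, 389.7 and 354.2 TPM in CORT, so Veh1 was also the lowest for them. Their part in the Cd4 values was not tested, nor was that of acinar or follicle transcripts in any of the 10 genes. Removing the 33 acinar genes and rescaling left 0 of 10 called. Other marker lists held called genes: the plasma cell gene Tnfrsf17 fell (log2 fold change -1.28 ± 0.18, adjusted p = 0.027), and Cxcl13 (2.78 ± 0.46, adjusted p = 0.035) and Clec4f (2.99 ± 0.24, adjusted p = 0.0045) rose. Cxcl13 attracts B cells, and Clec4f is a lectin of Kupffer cells. No other gene of the B cell and follicle list or of the macrophage list was called. Of the tested genes, 5 were higher and 2 lower in the former (median 0.45), and 4 higher and 5 lower in the latter (median -0.04). Whether Cxcl13 and Clec4f reflect a gain of such cells was not tested. The call of Clec4f held without any 1 library. That of Tnfrsf17 was lost without any Veh library, CORT1 or CORT2 (adjusted p = 0.054 to 0.11), and that of Cxcl13 without any Veh library, CORT2 or CORT3 (adjusted p = 0.065 to 0.10). Both were also lost without a filter (0.085 and 0.098), with the replicate number as a block (0.069 and 0.094) and without Veh1 and CORT2 together (0.11 for each). Sums were 833.0 to 1024.8 TPM in Veh and 226.5 to 513.3 TPM in CORT for the 4 plasma cell genes, and 14.2 to 22.5 TPM against 11.2 to 14.8 TPM for the 8 dendritic cell genes.

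To ask whether coreceptors or granzymes moved apart from CD3, log2 ratios were taken within each library, as differences of log2(TPM + 1), so the added 1 TPM pulls the ratios of low genes such as Cd8b1 towards 0. Relative to the mean of the 3 CD3 genes, the granzymes stood at 3.31, 3.64 and 3.49 in Veh and at 3.44, 3.52 and 3.20 in CORT, a difference of -0.09 (exact permutation test, two-sided, p = 0.60). The 2 CD8 genes relative to CD3 stood at -1.21, -0.86 and -1.03 in Veh and at -1.23, -1.03 and -1.44 in CORT, a difference of -0.20 (exact p = 0.20). Cd4 relative to CD3 stood at -1.24, -0.71 and -0.68 in Veh and at -1.43, -0.95 and -1.41 in CORT, a difference of -0.38 (exact p = 0.20). Groups overlapped in each case. Cd8b1 relative to Cd8a stood at -2.75, -1.99 and -2.16 in Veh and at -2.71, -2.33 and -2.73 in CORT, a difference of -0.29 (exact p = 0.40), so beta chain transcripts were the scarcer in every library of both groups. Adjusted over 8 ratios, 4 per tissue, these p-values were 0.40 to 0.60, and 3 libraries against 3 cannot go below 0.1.

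The other genes of the T cell programme came from 4 lists of companion genes. Of 84 companion genes, 63 were tested in the intestine and 0 were called by limma. An unadjusted p under 0.05 was found for 11 of the 63, against 2618 of all 13607 tested genes. With the 1.5-fold limit added, 8 of the 63 passed, against 10.3% of all tested genes by that rule. Groups did not overlap for 12 of the 63, against 26.4% of all tested genes. Among 20 tested genes of receptor chains and signalling, 16 had a negative and 4 a positive log2 fold change (median -0.19). The chain with the highest mean level, Trgc1, a constant region of the gamma chain, was at 9.97, 11.1 and 12.7 TPM in Veh and at 17.6, 19.6 and 17.4 TPM in CORT. Every CORT library exceeded every Veh library, and the log2 fold change was 0.66 ± 0.13 (adjusted p = 0.060, 0.059 to 0.17 over 12 alternatives). Trbc2, a constant region of the beta chain, was at 15.5, 18.0 and 18.8 TPM in Veh and at 10.8, 13.4 and 11.1 TPM in CORT, the opposite arrangement (-0.53 ± 0.14, adjusted p = 0.11). Trac, the constant region of the alpha chain, was at 8.71, 13.7 and 18.4 TPM in Veh and at 7.87, 10.01 and 6.62 TPM in CORT, where CORT2 exceeded Veh1 (-0.63 ± 0.27, adjusted p = 0.27). Trdc, the constant region of the delta chain, was at 1.85 to 2.10 TPM in Veh and 1.94 to 3.70 TPM in CORT (0.31 ± 0.21, adjusted p = 0.45).

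The gamma to alpha chain contrast was looked at after these values were seen and is given without a test. The log2 ratio of Trgc1 to Trac was 0.18, -0.28 and -0.51 in Veh and 1.07, 0.90 and 1.27 in CORT, a difference of 1.29 with no overlap. Relative to CD3, Trgc1 stood at -0.28 to 0.07 in Veh and 0.61 to 0.69 in CORT, and Trac at -0.10 to 0.38 in Veh and -0.66 to -0.23 in CORT. Veh1 thus lay on the Veh side here, unlike its place for the 10 T cell genes themselves. Trgc1 and Trgc2, like Trbc1 and Trbc2, are close copies between which reads can be split, so their single values are uncertain. Trgc2 was at 9.19 to 15.3 TPM in Veh and 10.9 to 12.9 TPM in CORT (0.14 ± 0.21, adjusted p = 0.74). Other chains of the same kinds were arranged otherwise: the gamma chain Trgc4 was at 4.18, 6.44 and 5.67 TPM in Veh and at 3.06, 6.71 and 3.75 TPM in CORT (-0.26 ± 0.27, adjusted p = 0.62), and the beta chain Trbc1 was at 7.02, 4.90 and 6.36 TPM in Veh and at 3.84, 8.26 and 4.34 TPM in CORT (-0.18 ± 0.27, adjusted p = 0.74), both overlapping.

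**Figure D4:**
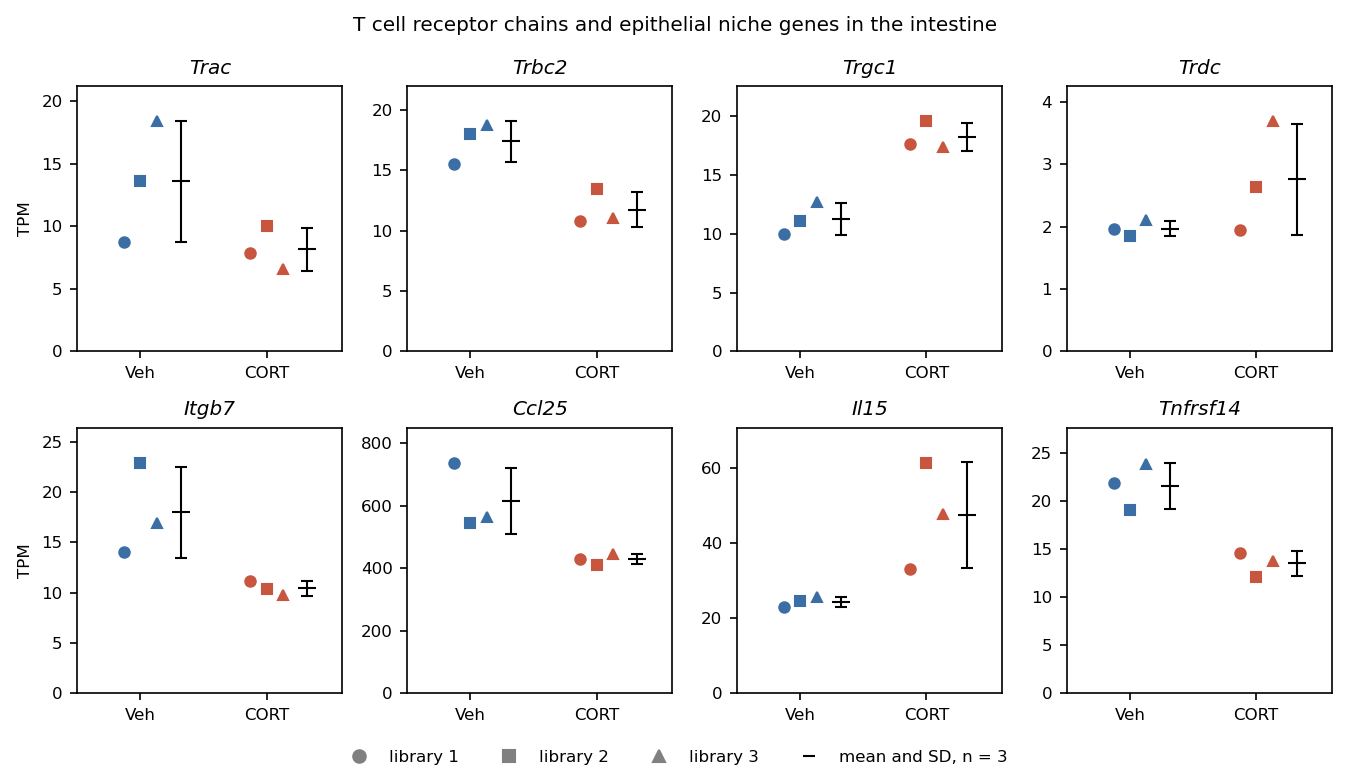
TPM of 4 T cell receptor constant regions and 4 genes of homing and the epithelial niche in the 6 intestine libraries (circle, square and triangle are libraries 1, 2 and 3 of a group), with the mean and SD of 3 libraries at the side. Trgc1 and Il15 lie higher in every CORT library, and Trbc2, Itgb7, Ccl25 and Tnfrsf14 lower, with no adjusted p of 0.05 or less. Only Trgc1 and Ccl25 were taken by rule, and the others after their values were seen. Groups do not overlap for 26.4% of all tested genes.

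Among cytotoxic and IEL genes, 24 of 29 were tested and 17 had a negative log2 fold change (median -0.13). Ccl5, a chemokine of cytotoxic cells and the most abundant of this list, was at 233.0, 306.7 and 374.0 TPM in Veh and at 301.5, 247.2 and 279.6 TPM in CORT, overlapping (-0.12 ± 0.19, adjusted p = 0.77). The partner of Itgae differed from Itgae in arrangement. Itgb7 was at 14.1, 22.9 and 16.9 TPM in Veh and at 11.2, 10.4 and 9.74 TPM in CORT, every CORT value below every Veh value (-0.71 ± 0.18, adjusted p = 0.11). The log2 ratio of Itgb7 to Itgae was 1.04, 1.25 and 0.39 in Veh and 0.30, 0.29 and 0.08 in CORT, a description chosen after the values were seen. Lag3, an inhibitory receptor, was at 4.65 to 6.82 TPM in Veh and 1.99 to 3.23 TPM in CORT (-0.83 ± 0.20, adjusted p = 0.092). Cd101, a surface protein of resident T cells and myeloid cells, was at 1.34 to 1.82 TPM in Veh and 0.39 to 0.70 TPM in CORT (-0.78 ± 0.20, adjusted p = 0.0997).

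Helper, regulatory and naive T cell genes were scarce: 6 of 17 passed the filter, 4 with a positive log2 fold change (median 0.36). The highest, Tcf7, a transcription factor of naive and memory T cells, was at 3.28 to 3.71 TPM in Veh and 3.70 to 6.40 TPM in CORT (0.36 ± 0.19, limma adjusted p = 0.35). Which cells of the tissue carried Tcf7 was not tested. CORT2, the library with follicle transcripts, was highest for Tcf7 and also for the lymph node homing gene Ccr7 (1.39 TPM against 0.16 to 0.54 TPM in the others).

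The epithelial side of the IEL niche was tested with 13 of 14 genes, 7 with a negative log2 fold change (median -0.09). Ccl25, the enterocyte chemokine that draws CCR9-bearing T cells and the highest of this list, was at 737.5, 543.6 and 564.0 TPM in Veh and at 430.2, 411.6 and 444.9 TPM in CORT (-0.51 ± 0.15, adjusted p = 0.15). Il15, a cytokine that maintains IELs, was at 22.9, 24.5 and 25.6 TPM in Veh and at 33.2, 61.3 and 47.6 TPM in CORT (0.89 ± 0.22, adjusted p = 0.092). Tnfrsf14, which codes for HVEM, the ligand of CD160, was at 21.9, 19.1 and 23.8 TPM in Veh and at 14.6, 12.2 and 13.8 TPM in CORT (-0.64 ± 0.14, adjusted p = 0.070). Groups did not overlap for any of these 3 genes, and none passed the adjusted threshold. They were the only 3 of the 13 with groups apart, against 26.4% of all tested genes, and Il15 and Tnfrsf14 were chosen after their values were seen. Cdh1, which codes for the E-cadherin bound by the Itgae product, was at 174.6 to 205.3 TPM in Veh and 161.3 to 188.3 TPM in CORT (-0.10 ± 0.13, adjusted p = 0.70).

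In the liver the 10 T cell genes were near the floor of the measurement. All 10 had a mean under 1 TPM in both groups, so 0 of 10 were tested, in a comparison where 810 of 11699 tested genes were called (6.92%). The Veh mean was higher in intestine than in liver by 7.12 times for Cd4 and by 737 times for Gzma, with the other 8 between. Hepatocyte genes summed to 96025 to 126051 TPM in the liver libraries, so the tissue matched its label, and Fkbp5 rose there as well (4.23 ± 0.32, adjusted p = 0.0018). Cd4 was at 0.63, 0.73 and 1.39 TPM in liver Veh and at 0.28, 0.14 and 0.35 TPM in liver CORT. Cd3g was at 0.40, 0.75 and 0.71 TPM in Veh, was listed at 0 in CORT1 and CORT2 and was at 0.23 TPM in CORT3. Itgae was at 0.10, 0.23 and 0.12 TPM in Veh and at 0.02, 0.01 and 0.05 TPM in CORT. These were the 3 of 10 genes whose liver groups did not overlap, against 20.3% of 23316 genes fitted without a filter. Over the 10 genes, 9 of 30 values were listed at 0 in liver CORT and 2 of 30 in liver Veh.

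Without the filter, limma gave log2 fold changes in liver of -0.59 ± 0.13 for Cd3g (adjusted p = 0.10), -0.59 ± 0.17 for Cd4 (adjusted p = 0.18) and -0.16 ± 0.05 for Itgae (adjusted p = 0.20), on a scale where 1 TPM is added to each value. None of the 10 was called. An unadjusted p under 0.05 was found for 3 of the 10, against 3685 of all 23316 genes in that fit. With the 1.5-fold limit added, 2 of the 10 passed, against 7.51% of all genes in that fit. Kupffer cells and other macrophages can carry Cd4, and the 11 macrophage genes summed to 218.9 to 298.7 TPM in liver Veh and 183.5 to 515.7 TPM in liver CORT. The sum of the 10 B cell and follicle genes was lower in liver CORT along with these T cell genes. It was 3.63, 9.19 and 5.13 TPM in Veh and 0.61, 1.67 and 1.82 TPM in CORT, with no overlap, and 3 of them passed the filter. Cxcl13, 1 of these 3, went the other way in its mean, at 0.73, 0.16 and 1.48 TPM in Veh and 0.29, 1.52 and 1.25 TPM in CORT. It made up most of the CORT2 and CORT3 sums. The part of B cell and follicle transcripts in the liver values was not tested. Gzma stood against the others, at 0.21, 0.82 and 0.19 TPM in Veh and at 0.28, 0.32 and 0.85 TPM in CORT, which overlap. The log2 ratio of the granzymes to CD3 differed by 0.37 and that of CD8 to CD3 by 0.29 in liver (exact permutation p = 0.10 each, the smallest that 3 against 3 allows, adjusted p = 0.40), both resting on values under 1 TPM.

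**Figure D5:**
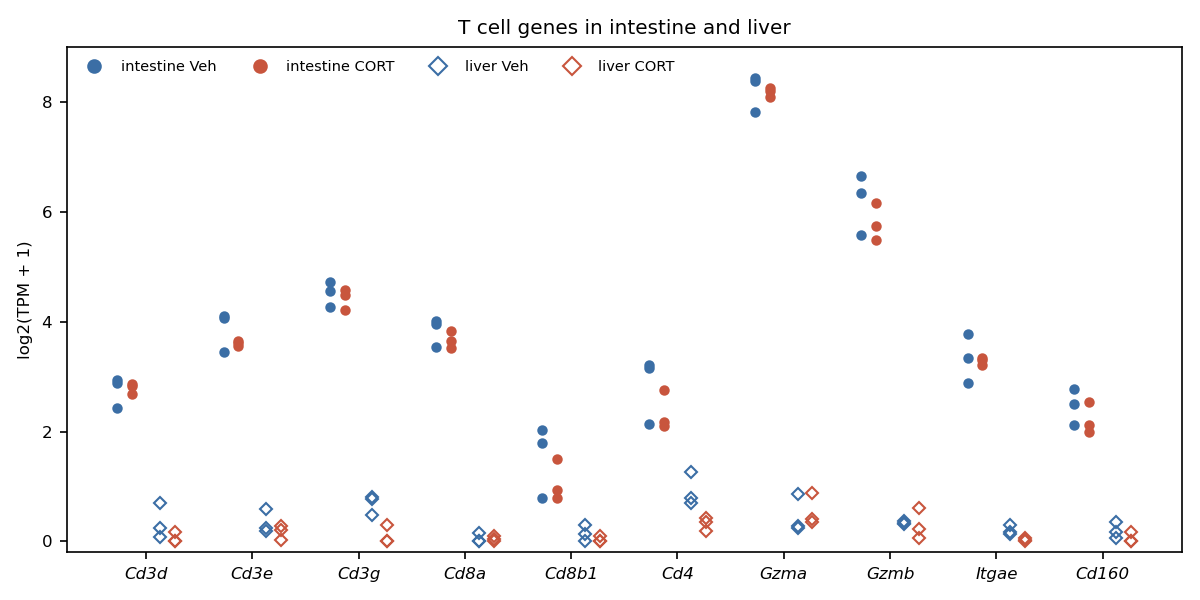
Log2(TPM + 1) of each T cell gene in every library of intestine (filled circles) and liver (open diamonds), Veh in blue and CORT in red. All liver values lie below the intestine values of the same gene, and Cd3g, Cd4 and Itgae are the genes whose liver groups do not overlap.

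A fit of all 12 libraries tested whether the effect of CORT differed between the tissues. Labels do not say whether the same animals gave both tissues. This fit took the 12 libraries as independent, and no fit paired the tissues. Of the 10 genes, 0 of 10 were called, against 533 of 14806 tested genes (3.60%). An unadjusted p under 0.05 was found for 0 of 10, against 2712 of 14806 tested genes. The difference (intestine minus liver log2 fold change) was largest for Cd3g, at 0.49 ± 0.23 (adjusted p = 0.29), and was 0.10 ± 0.41 for Cd4 (adjusted p = 0.93). Liver values near 0 hold the log2(TPM + 1) changes there close to 0, which limits this comparison.

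Of the companion genes, 20 of 84 were tested in liver and 2 were called, both lower, against 6.92% of all genes tested in liver. Cdh1 was at 11.0, 22.0 and 8.49 TPM in Veh and at 2.59, 1.10 and 3.12 TPM in CORT (-2.13 ± 0.38, adjusted p = 0.024). Tcf7 was at 2.29, 3.00 and 2.84 TPM in Veh and at 0.74, 1.46 and 0.99 TPM in CORT (-0.86 ± 0.20, limma adjusted p = 0.048). Its liver Veh mean of 2.71 TPM stood above the 0.62 TPM of Cd3g, the highest CD3 gene there, and which cells carried it was not tested. Neither call held through all fits with 1 library left out: that of Cdh1 was lost without Veh1 (limma adjusted p = 0.065), CORT1 (0.072) or CORT2 (0.058), and that of Tcf7 without any 1 of the 6 libraries (0.059 to 0.16). In these fits the log2 fold change stayed between -2.40 and -1.76 for Cdh1 and between -0.99 and -0.74 for Tcf7. Ccl5 was at 2.43, 7.37 and 4.16 TPM in liver Veh and at 0.30, 0.40 and 1.54 TPM in liver CORT, with no overlap (-1.67 ± 0.39, adjusted p = 0.051, 0.032 to 0.15 over 10 alternatives). The most abundant of the 4 lists in liver, Zap70, Tyrobp, S1pr1 and Cd1d1, were not called, with adjusted p of 0.58, 0.90, 0.61 and 0.15. Of these, Zap70 codes for the kinase that the receptor chains recruit and Cd1d1 for the lipid-presenting molecule of natural killer T cells.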

How the data were processed

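RNA-seq libraries of duodenum and liver (50 mg of tissue per sample) were grouped by their labels. Per the labels and the study's methods, the authors trimmed reads with SeqPrep and Sickle and used HISAT2, StringTie and RSEM with GRCm39, versions not given in the sources used here, and deposited TPM per gene and library, not pooled. Steps made here began from these TPM. Values were taken as log2(TPM + 1), filtered at a mean of 1 TPM in either group, and fitted with limma 3.58.1 (R 4.3.3, lmFit, eBayes with a trend) in each tissue alone and in a joint fit with a treatment by tissue term. The design provided count models for the case of read counts, which the tables do not hold. Intervals are 95%. Adjusted p-values of single genes come from limma throughout. Ratios were tested by two-sided exact permutation (scipy 1.17.1). The fits were tested on simulated data. The 10 genes and all lists were chosen with earlier results of these data known.

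By rule the text names the 10 genes, called companion and marker genes, the highest companion of each list in each tissue, Fkbp5, Tsc22d3 and the 5 genes most like CD3. Apoa4, a called enterocyte marker in liver, is not reported, and some other genes that the rule selects are not reported here. Others were chosen after their values were seen: Trac, Trbc2, Trdc, Trgc2, Trgc4, Trbc1, Itgb7, Lag3, Cd101, Il15, Tnfrsf14, Ccr7, Klra4 and, in liver, Ccl5. Alternatives were a pseudocount of 0.1, no filter, median-ratio scaling, removal of acinar genes, the replicate number as a block, each library left out, unadjusted p-values, no limit on fold change and, added after seeing the data, Veh1 and CORT2 of the intestine left out together. Promoter sequences are RefSeq's (GRCm38.p6).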

Additional observations from a re-analysis of the deposited data

Results flagged for a closer look

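None of the 10 T cell genes differed between the tissues in its response to CORT by the joint limma fit. Among the companion and marker genes named, 4 did, each with an adjusted p of 0.05 or less for the difference (intestine minus liver log2 fold change). Tcf7 had a difference of 1.22 ± 0.26 (SE, adjusted p = 0.030), lost when the intestine Veh2, Veh3 or CORT3 or the liver Veh3, CORT1 or CORT3 was left out (adjusted p = 0.057 to 0.074). Cdh1 had a difference of 2.03 ± 0.44 (adjusted p = 0.031), lost when the intestine Veh2, Veh3 or any CORT library, or the liver CORT1 or CORT2, was left out (0.053 to 0.070). Clec4f had a difference of 3.01 ± 0.44 (adjusted p = 0.0051), and Tnfrsf17 had one of -1.25 ± 0.22 (adjusted p = 0.012). The calls of Clec4f and Tnfrsf17 held without any 1 library, although that of Tnfrsf17 was lost at a pseudocount of 0.1 (adjusted p = 0.16) and with the replicate number as a block (0.058). In liver Tnfrsf17 was at 0.08 TPM in Veh1 and at 0 in every other library. Its liver change was thus held near 0, and its difference largely repeats the intestine change. All 4 genes had already been called in the intestine or the liver of these same data, so their differences are no independent result.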

How the results depend on the processing

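With 3 libraries per group and unknown depth, only large changes of low genes can be detected. Of the 10 T cell genes, 0 were called in the intestine, the liver or the joint fit under every alternative run. In the liver 0 of 10 passed the filter with all libraries, so a gene under the filter could not be called there. The liver fit without a filter held all 10. By unadjusted limma p under 0.05 and the 1.5-fold limit, 2 of them (Cd3g and Cd4) passed there, against 7.51% of all genes. Median log2 fold changes of the 10 in the intestine were -0.21 with all libraries, -0.36 without Veh1 and -0.45 without Veh1 and CORT2. Veh1 was the lowest Veh library for each of the 10, so leaving it out must lower them. Replicate numbers did not pair the libraries: deviations of same-numbered libraries correlated at 0.05, 0.07 and -0.0039 in the intestine and at 0.04, -0.01 and -0.12 in the liver, and not every library correlated best with its own number. With the replicate number as a block, 0 of 10 T cell genes were called and calls over all genes went from 292 to 62 in the intestine, from 810 to 307 in the liver and from 533 to 211 in the joint fit, with 0 companion genes called in any of the 3 fits.

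Called companion genes, 0 in the intestine, were 8 with unadjusted p-values. In the liver the 2 became 6 with unadjusted p-values, 1 without a filter and 0 to 2 without single libraries. In the joint fit the 2 became 4 at a pseudocount of 0.1 and 0 to 4 without single libraries. Signs of uncalled genes turned in some fits. Without single libraries the intestine log2 fold change ranged from -0.12 to 0.13 for Cd3d, from -0.22 to 0.010 for Cd3g, from -0.22 to 0.085 for Gzma, from -0.26 to 0.19 for Itgae and from -0.30 to 0.042 for Ccl5, and that of Tyrobp in liver from -0.15 to 0.42. Without Veh1 and CORT2, Cd3d was at -0.16 and Trgc2 at -0.011, and Tyrobp in liver was at -0.0044 with median-ratio scaling. The tissue difference ranged from -0.31 to 0.014 for Cd3e, from -0.25 to 0.29 for Cd4, from -0.31 to 0.060 for Gzma, from -0.10 to 0.35 for Itgae and from -0.27 to 0.053 for Cd160. At a pseudocount of 0.1 it was 0.42 for Cd3e and 0.55 for Cd160. The cause was not tested. Of 8 log2 ratios, 8 kept their sign in every fit run, and over the intestine ratios the differences without single libraries ran from -0.56 to -0.00049.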
